A study of Ovis aries and Capra hircus and Bos taurus with 26 samples.

Results

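The clusters described here are groups of at least 4 distal H3K27ac regions that lay within 12.5 kb of each other in livers of 3 ruminants (cattle, sheep and goats). H3K27ac is an acetylated lysine of histone H3 that occurs at active enhancers and promoters, whereas H3K4me3, a trimethylated lysine of the same histone, is found mainly at promoters. The clusters were chosen by peak positions alone. In each species the H3K27ac peaks of all libraries were merged, regions with a peak in at least 2 libraries and without any H3K4me3 peak were kept as enhancer regions, and those no more than 12.5 kb apart on an autosome were stitched. This gave 708 clusters with 3260 of the 40899 enhancer regions of the 3 species. Because the positions chose the clusters, the number, size and spacing of these 708 are given as a description, without a test. The number of clusters was compared between species by a test only after it was rebuilt inside each library.

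Frozen liver came from 9 healthy adult animals, which were Holstein cattle of 3 to 4 years, Texel sheep of 2 to 3 years and Yunnan black goats of 2 to 3 years, with no treatment named. Chromatin immunoprecipitation and sequencing (ChIP-seq) gave 8 H3K27ac libraries (cattle B and C, and animals A, B and C of sheep and goats) and 9 H3K4me3 libraries (animals A, B and C of each species). Each library is a different animal for its mark, and breed and species cannot be told apart. Whole liver holds hepatocytes and other cell types, and a larger share of a cell type cannot be told apart from more of the mark per cell. The autosomal H3K27ac peaks numbered from 35693 to 48735 per library. Read totals are not part of peak lists, but the background that the peak caller used can be recovered from its fold enrichment and p-value, and its lowest percentile was 1.78 to 2.15 fragments over the 8 H3K27ac libraries. The labels name no date or batch, and the labelled tissue was not checked against marker genes here, since annotations of these builds were not used.

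Enhancers are stretches of DNA that bind transcription factors and raise the activity of promoters at a distance. Dense groups of acetylated enhancers occur near many genes that characterise a cell type, in liver for instance genes of plasma proteins and of lipid metabolism. Such groups are often called super-enhancers when they are ranked by their signal. The clusters here were not ranked by signal, and the gene next to each was not determined.

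The clusters held 6.38% of the enhancer regions in cattle (774 of 12130), 5.60% in sheep (672 of 12008) and 10.8% in goats (1814 of 16761). Cattle had 171 clusters, sheep 151 and goats 386. Isolated regions, which had no other enhancer region within 12.5 kb, made up 52.9% of the regions in cattle, 55.8% in sheep and 44.4% in goats. With all libraries, goats had the largest share of regions in clusters and the smallest share of isolated ones. The numbers of libraries behind these counts differ, since both libraries were needed in cattle and 2 of 3 in sheep and goats. With 1 animal left out, so that each species rested on 2 H3K27ac libraries, sheep had 57 (without A), 85 (without B) or 51 clusters (without C) and goats 226 (without A), 140 (without B) or 199 (without C). These counts also lack the H3K4me3 library of the animal left out. Cattle without animal A, which has an H3K4me3 library alone, likewise rested on 2 libraries of each mark and had 206 clusters, within the range of goats and above that of sheep. The share of enhancer regions in clusters was then 7.17% in cattle, 8.12% (without A), 5.73% (without B) or 7.14% (without C) in goats, and 2.69% to 4.15% in sheep. Goats were thus not above cattle without goat B or C.

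**Figure D1:**
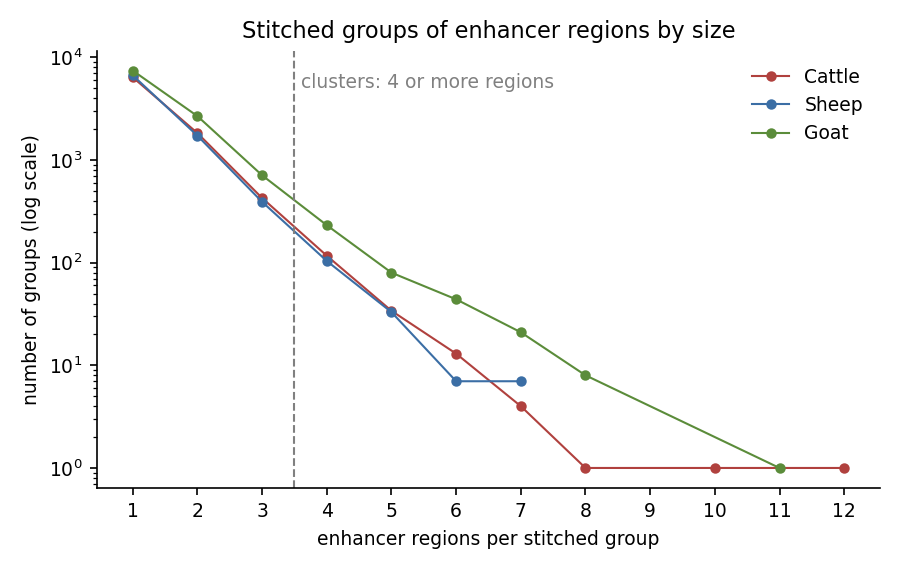
Number of stitched groups (y axis, log scale) by the number of enhancer regions they hold (x axis) in cattle, sheep and goats, with sizes that no group had left out. Counts drop at nearly every step in each species, and the goat curve lies above the other two up to groups of 8.

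Most clusters were at the lower limit of size. Groups of exactly 4 regions made up 60.1% of the clusters in goats, 68.4% in cattle and 68.9% in sheep. The largest cluster had 12 regions in cattle, 7 in sheep and 11 in goats, and clusters of 7 or more regions numbered 7, 7 and 30 in the same order. The rule leaves out many groups just below the limit, with 711 groups of 3 regions in goats, 427 in cattle and 392 in sheep. The widest gap inside a cluster was 12488 bp in cattle, 12470 bp in sheep and 12463 bp in goats, and the narrowest gap that separated neighbours was 12502, 12509 and 12504 bp. The clusters with another enhancer region less than 1 kb beyond the stitching distance numbered 25 in goats, 9 in cattle and 8 in sheep.

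The median cluster spanned 18082 bp in cattle, 18449 bp in sheep and 17443 bp in goats. The shortest and the longest spanned 3468 and 83942 bp in cattle, 2910 and 42146 bp in sheep, and 2906 and 53705 bp in goats. Enhancer regions covered a median of 16.6%, 15.7% and 15.6% of the span in cattle, sheep and goats, so most of the DNA inside a cluster carried no reproducible distal peak. In total the spans made up 3.37 Mb in cattle, 2.85 Mb in sheep and 7.30 Mb in goats.

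The spacing inside clusters had 2 modes. Gaps between neighbours were under 1 kb in 38.1% of cases in cattle, 37.4% in sheep and 42.8% in goats, and such a gap occurred in 86.0%, 85.4% and 89.9% of the clusters. Gaps of 2.5 to 5 kb were the least common class, with 7.96% in cattle, 9.21% in sheep and 8.12% in goats. Gaps of 5 to 7.5 kb were again more common, at 18.7%, 20.2% and 15.7%. The same dip was present among all neighbouring enhancer regions up to 12.5 kb apart, where gaps of 2.5 to 5 kb made up 6.02% (cattle), 6.03% (sheep) and 6.36% (goats), so it was not limited to the clusters. Many clusters thus held neighbours that lay close together. When regions within 1 kb were counted as 1, a choice made after the spacing was seen, 51 of the cattle clusters, 49 of the sheep clusters and 118 of the goat clusters still had 4 or more units.

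**Figure D2:**
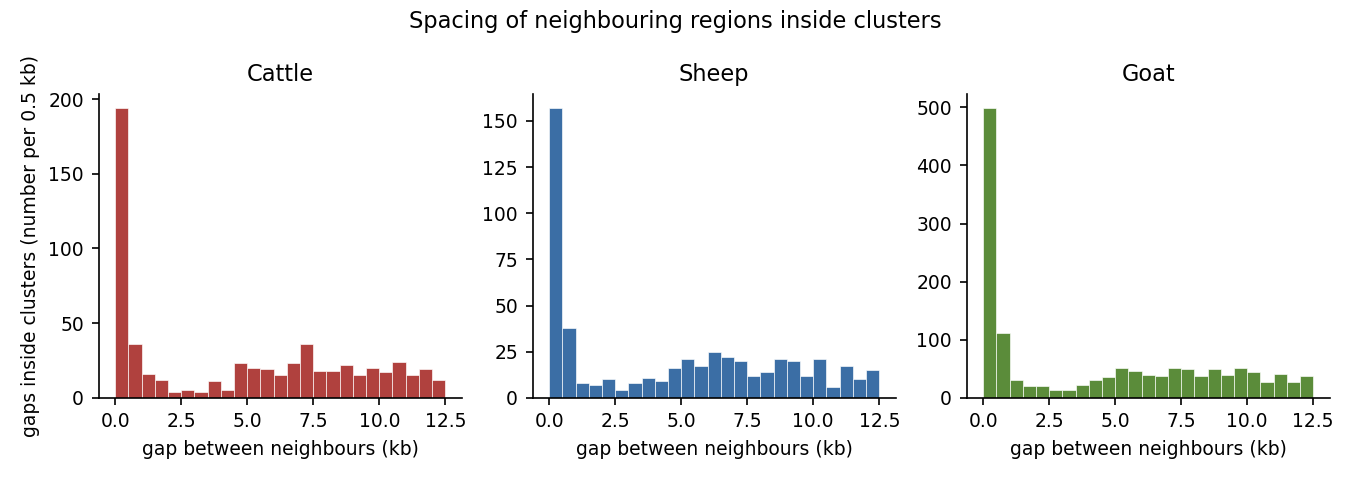
Number of gaps inside clusters (y axis, per 0.5 kb, scaled separately in each panel) by the distance between neighbouring regions (x axis, kb) in cattle, sheep and goats. Each panel has a tall bar next to 0, a trough near 3 kb and a flat stretch from about 5 kb to the stitching distance of 12.5 kb.

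The cluster with most regions in cattle lay at chr26:8919421-9003362 (ARS-UCD1.2), and it also had the longest span of all 708. Both libraries had a peak in each of its 12 regions, with a median fold enrichment (summit over local background) of 2.37 in animal B and 2.82 in animal C. Its median summit pileup, the number of fragments over the summit, was 58.5 in B and 87.5 in C, over a local background of 23.5 and 27.8 fragments. The fold enrichment was thus low although many fragments covered each summit. Within its span there was 1 H3K4me3 peak.

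In sheep the first of 7 clusters of 7 regions, by summed length, lay at chr26:20986230-21016355 (Oar_rambouillet_v1.0). Animals A and C had a peak in all 7 regions and B in 6. The median fold enrichment was 2.68 in A, 2.59 in B and 2.56 in C, which differ little, over a background of 22.1, 26.3 and 32.2 fragments. In goats the cluster of 11 regions lay at chr5:95926249-95963505 (ARS1). Animal A had a peak in 5 of its regions, B in 11 and C in 10, so the cluster was complete in 1 animal alone. Its median fold enrichment was 2.66 in A, 2.26 in B and 2.27 in C.

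**Figure D3:**
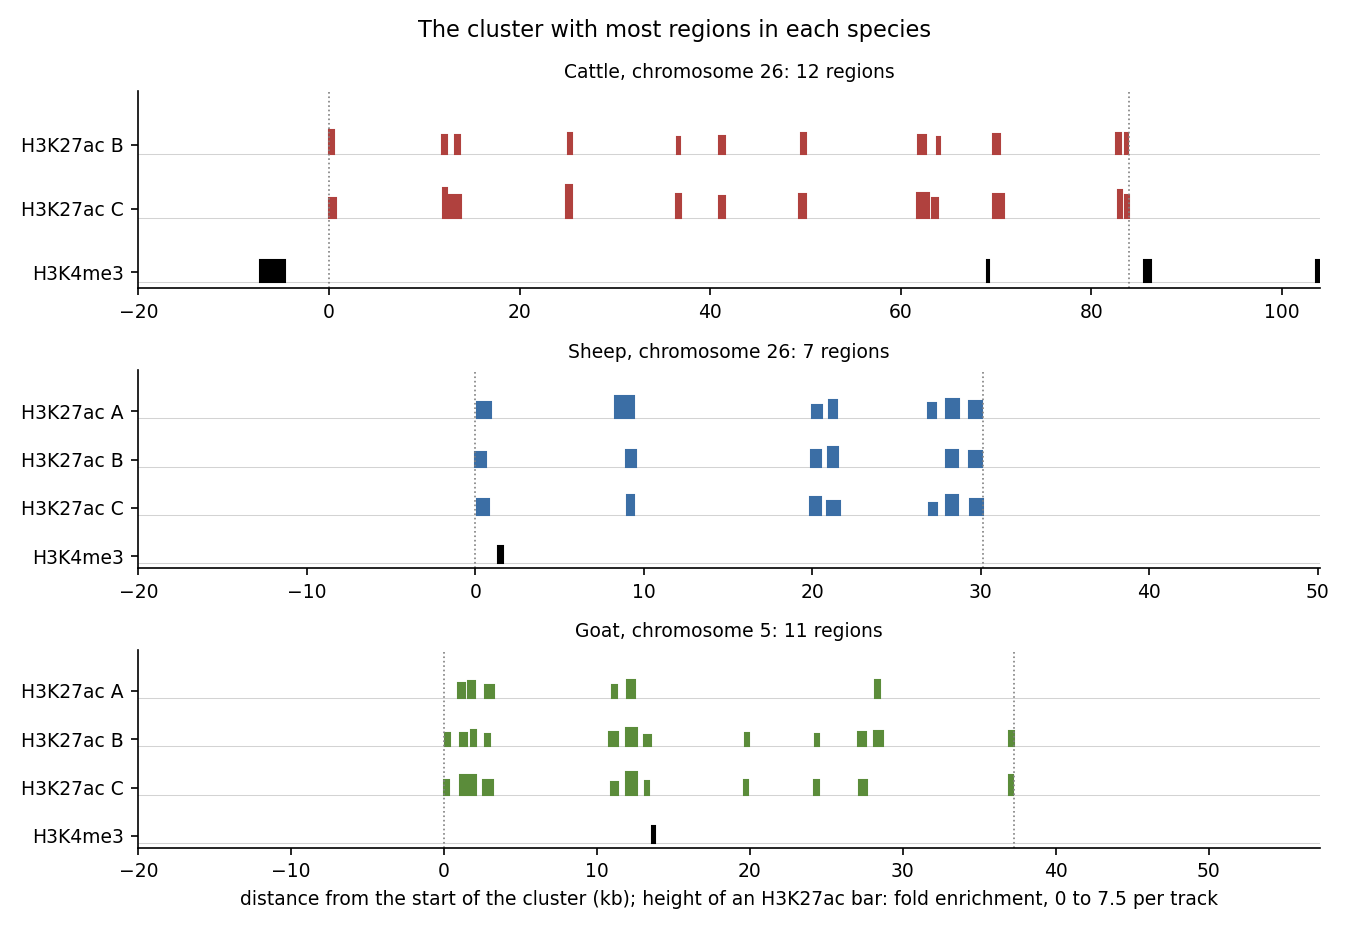
Peaks of each H3K27ac library inside the cluster with most regions of cattle, sheep and goats, by distance from the start of the cluster (x axis, kb), with the height of each bar giving its fold enrichment, and H3K4me3 peaks of any library in black. Dotted lines mark the ends of the clusters, H3K27ac peaks that overlap H3K4me3 are not drawn, and goat A has peaks in 5 of 11 regions where goat B has them in all.

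Other large clusters differed in how many animals shared them. The goat cluster at chr10:43125003-43158801 had all 8 regions in all 3 animals, with a median fold enrichment of 3.64 in A, 3.22 in B and 3.77 in C. In the goat cluster of 8 regions at chr13:57920953-57943252, 6 were in all 3 animals and the median gap was 391 bp. The sheep cluster at chr19:52593717-52616885 had 7 regions, of which 2 were in all 3 animals. The sheep cluster at chr7:61788103-61821390, also with 7 regions, had 5 in all 3 animals and no H3K4me3 peak in its span. In cattle the clusters of 10 regions at chr19:40349789-40408098 and of 8 regions at chr13:78389731-78445321 had 4 and 3 H3K4me3 peaks in their spans. The median background of the latter was the highest among the named clusters, at 42.2 fragments in B and 47.8 in C, and its median fold enrichment was 2.01 and 2.30.

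The longest span in sheep was chr5:95628822-95670967, with 7 regions over 42146 bp, and in goats chr20:4675439-4729143, with 8 regions over 53705 bp. The clusters whose median fold enrichment was highest in their weakest library all had 4 regions and no H3K4me3 peak in their span. They lay at chr25:7726793-7754406 in cattle (median fold enrichment 3.92 in B and 4.10 in C), at chr12:27186634-27201701 in sheep (5.01 in A, 5.39 in B and 4.61 in C) and at chr5:19750490-19763014 in goats (4.60 in A, 4.67 in B and 5.27 in C). Their background was low, at 4.23 and 4.02 fragments in cattle, 3.56 to 4.88 in sheep and 4.84 to 5.64 in goats. Sheep B had a peak in only 2 of the 4 regions of the sheep cluster, and goat C in 3 of the 4 of the goat cluster. The clusters with most regions and the clusters with the highest fold enrichment were therefore different ones in each species.

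Clusters occurred on nearly all autosomes. Cattle chromosome 9 had none among 345 enhancer regions, and sheep chromosome 24 had none among 228, where a single cluster would hold at least 4 regions. The highest shares of enhancer regions in clusters were 11.0% on cattle chromosome 27, 11.3% on sheep chromosome 6 and 17.1% on goat chromosome 27. In goats the lowest shares were on chromosomes 12 and 22, with 5.71% on the latter. Over the 29 autosomes with the same number in cattle and goats, the density of enhancer regions per Mb was closely related between the species (Pearson's r = 0.86, Spearman's rho = 0.83), whereas the share of regions in clusters was not (r = 0.17, rho = 0.10). The shares rest on few clusters, with 0 to 11 per chromosome in cattle and 4 to 24 in goats. Their low correlation thus cannot show whether clustering differs between the species. The same number also need not mean the same chromosome. The last peak of chromosome 9 lay at 104.5 Mb in cattle and 91.6 Mb in goats. For chromosome 14 it lay at 82.3 and 94.7 Mb. The points of both correlations rest on the same libraries and on chromosomes of different length, and the values are a description.

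The first comparison asked whether single livers of the 3 species differ in how many clusters they hold. Here each library was stitched on its own, from its peaks without H3K4me3. In cattle, B had 375 clusters and C 880. In sheep, A had 269, B 201 and C 358. In goats, A had 367, B 801 and C 556. Sheep were lowest on average, at 276 ± 78.7 (SD, n = 3) against 627.5 ± 357 (n = 2) in cattle and 575 ± 218 (n = 3) in goats. Each sheep library lay below each library of the other species, though sheep C (358) was close to goat A (367) and cattle B (375). Cattle and goats overlapped. The difference did not pass the exact permutation test of the F statistic over species labels (p = 0.214, adjusted p = 0.245 over 8 tests, 560 arrangements). The share of a library's distal peaks in clusters ran from 6.70% to 9.97% in sheep, from 9.97% to 16.5% in goats, and was 9.67% and 19.9% in cattle (exact permutation test, p = 0.250). Without cattle B, which leaves cattle with 1 library, the latter exact permutation test over the 3 species passed the threshold (p = 0.0286), with the lone cattle library assumed to vary like the others. The number of clusters moved with the number of distal peaks, from 201 clusters at 13364 peaks in sheep B to 801 at 23510 in goat B and 880 at 22107 in cattle C. The part of the peak number in the species means was not tested.

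The second comparison asked whether peaks in clusters are stronger than isolated ones within the same library. The rule used whether a peak was called, not its strength. In cattle the median fold enrichment of clustered and isolated regions was 2.60 and 3.37 in B, and 3.06 and 3.86 in C. In sheep it was 3.11 and 3.63 in A, 2.94 and 3.58 in B, and 2.98 and 3.62 in C. In goats it was 3.09 and 3.66 in A, 3.07 and 3.70 in B, and 3.23 and 3.77 in C. Clustered regions thus had the lower fold enrichment in all 8 libraries, and no clustered median reached any isolated one. The mean difference was -0.28 ± 0.05 on the log2 scale (SD, n = 8), and the two-sided exact sign-flip permutation test gave p = 0.00781 (adjusted p = 0.0125), the smallest it can give with 8 libraries. The rule chose clustered regions for near neighbours, and fold enrichment is a ratio to the local background around the summit. The test therefore cannot separate this difference from the choice of regions.

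The direction depended on the measure of strength. With −log10 of the q-value in place of fold enrichment, clustered regions had the higher values in all 8 libraries, by 0.20 on the log2 scale (exact sign-flip permutation test, p = 0.00781). Fold enrichment is a ratio, and both of its parts were higher in clusters. The median pileup at the summit was 46 in clustered and 28 in isolated regions of cattle B, and 56 and 28 in cattle C. It was 36 and 24 in sheep A and in sheep B, and 39 and 24 in sheep C. In goats it was 33 and 21 in A, 43 and 25 in B, and 38 and 22 in C. The pileup was higher in clusters in 8 of 8 libraries, by 1.5 to 2 times. The local background of clustered and isolated regions was 16.9 and 7.24 fragments in cattle B, and 17.3 and 6.17 in cattle C. In sheep it was 10.5 and 5.56 in A, 11.2 and 5.69 in B, and 11.7 and 5.52 in C. In goats it was 9.91 and 4.82 in A, 12.8 and 5.62 in B, and 10.6 and 4.86 in C. The background was thus 1.88 to 2.81 times as high in clusters, a larger ratio than that of the pileup in each library. Pileup and background were recovered after the lists had been seen and are given without a test. The rule chose regions for near neighbours, the peak caller takes the local background from windows around the summit, and a peak in high background needs a higher pileup to be called. The part of these steps was not tested.

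The same shift ran through groups of growing size. For isolated regions the median fold enrichment was 3.37 to 3.86 over the 8 libraries, for groups of 2 it was 3.01 to 3.62, for groups of 3 it was 2.72 to 3.41, and for groups of 4 it was 2.65 to 3.25. In groups of 7 or more it was 2.48 to 3.19. Groups of 3, just outside the rule, and groups of 4, just inside it, were thus close to each other. The median background went from 4.82 to 7.24 fragments at isolated regions to 8.37 to 14.1 in groups of 3, 9.15 to 15.9 in groups of 4 and 12.2 to 25.4 in groups of 7 or more. The median pileup went from 21 to 28 fragments at isolated regions to 38.5 to 82 in groups of 7 or more.

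**Figure D4:**
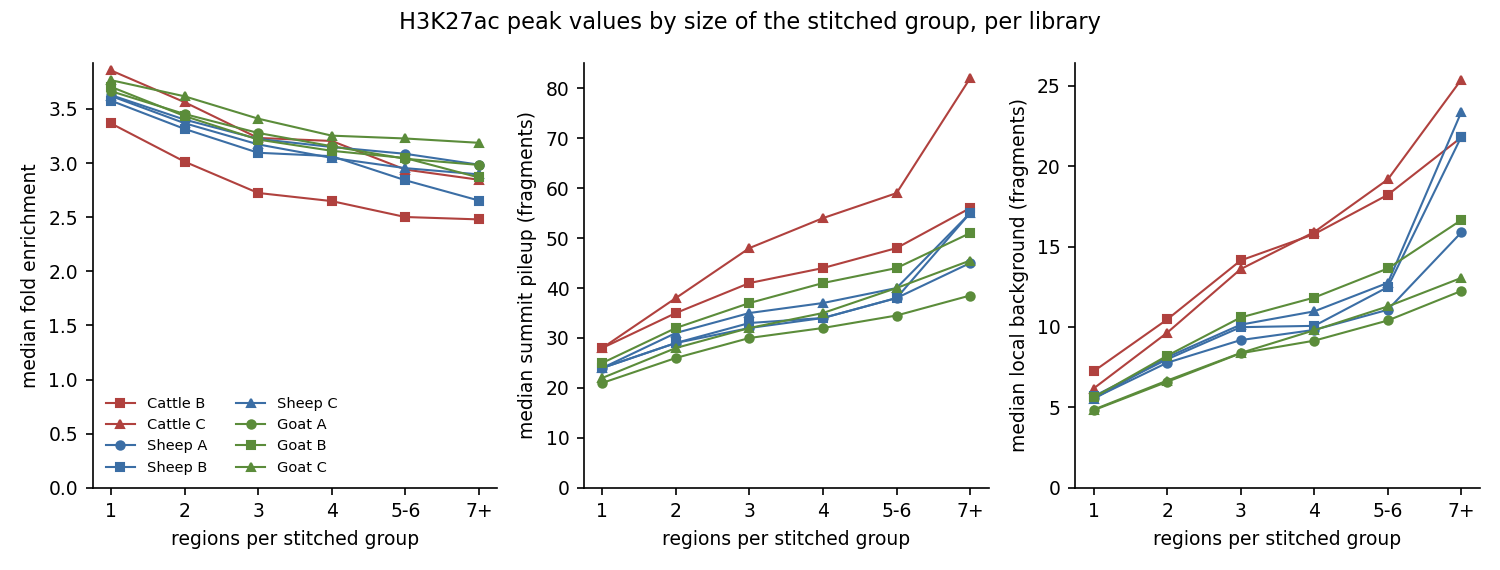
Median fold enrichment, summit pileup and local background (y axes, the last 2 in fragments) of H3K27ac peaks by the number of regions in the stitched group (x axis), with a line for each of the 8 libraries. Fold enrichment falls with group size in every library while pileup and background climb, up to 82 and 25.4 fragments in cattle C.

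Within the clusters, regions of groups of 7 or more had a lower fold enrichment than regions of groups of 4 in all 8 libraries, by -0.11 ± 0.06 on the log2 scale (SD, n = 8, exact sign-flip permutation test, p = 0.00781, adjusted p = 0.0125). This rests on 39 to 212 regions per library in the larger groups. Without goat B the call was lost (-0.058, 5 of 7 libraries, p = 0.266, exact test). Without sheep A or C the difference was -0.099 in 5 of 5 libraries, where the exact test cannot go below p = 0.0625. With −log10 q the direction turned (0.23, exact test, p = 0.00781), as it did with stitching within 5 kb (0.19, 3 libraries, p = 0.250). With the 20000 strongest peaks the call was lost (-0.051, 3 of 6 libraries, exact test, p = 0.625). Inner regions had a slightly lower fold enrichment than the outermost 2 of the same cluster, by -0.04 ± 0.02 (SD, n = 8, exact sign-flip permutation test, p = 0.00781, adjusted p = 0.0125). Without sheep A the difference was -0.023 in 7 of 7 libraries. With −log10 q inner regions were higher instead (0.056, p = 0.0469, exact test), and the direction also turned with stitching within 5 kb (0.0070, p = 0.609). The call was lost with the 20000 strongest peaks (-0.024, p = 0.367, exact test) and in clusters without H3K4me3 in their span (-0.018, p = 0.0703). By the rule an outermost region has no other enhancer region within 12.5 kb on 1 side, and larger groups hold more neighbours. The tests of group size and of inner regions therefore cannot separate these differences from the stitching.

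The local background differed by the distance to the nearest other peak of the same library, inside and outside clusters. Among isolated regions with no other H3K27ac peak within 25 kb, the median background was 3.28 to 5.13 fragments and the median fold enrichment 3.69 to 4.33. Isolated regions can have other peaks nearby, such as peaks with H3K4me3, since only enhancer regions were stitched. Where such a neighbour lay at 5 to 10 kb, the background was 4.99 to 7.86, and at 2.5 to 5 kb it was 9.05 to 12.9. With a neighbour within 2.5 kb it was lower again, at 7.99 to 10.8, below the 2.5 to 5 kb class in 8 of 8 libraries. Clustered peaks showed the same step at 5 kb in 8 of 8 libraries, with a background of 6.03 to 11.9 fragments at 5 to 10 kb and 12.9 to 21.2 at 2.5 to 5 kb. Within 2.5 kb it was 10.5 to 18.2, below the 2.5 to 5 kb class in 6 of 8 libraries. The fold enrichment of clustered peaks was 2.86 to 3.69 at 5 to 10 kb, 2.34 to 2.93 at 2.5 to 5 kb and 2.5 to 3.18 within 2.5 kb. Clustered and isolated peaks were also compared within these classes, where neither the exact distance nor the number of neighbours was matched. The clustered peaks at 2.5 to 5 kb numbered only 31 to 109 per library. Fold enrichment was lower in clustered peaks in 8 of 8 libraries for neighbours up to 2.5 kb away (-0.16 ± 0.06, log2, SD), at 2.5 to 5 kb (-0.16 ± 0.09) and at 5 to 10 kb (-0.12 ± 0.05). At 10 to 25 kb it was lower in 5 of 7 (-0.07 ± 0.12). The rule chose regions for near neighbours, so these values are a description without a p-value.

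Regions in a cluster differed from each other in strength. In the median cluster the strongest region had a fold enrichment 1.43 to 1.59 times that of the weakest, and a pileup 1.66 to 2 times as high, over the 8 libraries. In cattle, where each region of all 171 clusters had a peak in both libraries, the region with the highest pileup was the same one in both for 102 clusters (59.6%). Of the clusters with all regions in all 3 animals, it was the same in 6 of 13 in sheep and in 16 of 37 in goats. By fold enrichment the strongest region was the same one in 72 cattle clusters (42.1%), in 5 of 13 in sheep and in 14 of 37 in goats. Agreement of 2 libraries in cattle and of 3 in sheep and goats cannot be compared directly, and the shares expected by chance were not computed. By pileup, the strongest region was at an end of the cluster in 40.4% of cases in cattle, where 44.2% of the regions are at an end. Over the clusters with all regions in all 3 animals, the values were 48.7% against 49.1% in sheep and 37.8% against 46.5% in goats.

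Clustered peaks were a little wider than isolated ones. The median width was 433.5 and 431 bp in cattle B, and 561.5 and 490 bp in cattle C. It was 427 and 421 bp in sheep A, 395.5 and 383 bp in sheep B, and 448 and 409 bp in sheep C. In goats it was 408 and 390 bp in A, 456 and 419 bp in B, and 434 and 394 bp in C. The clustered median was larger in all 8 libraries, by 0.09 ± 0.07 on the log2 scale (SD, n = 8, exact sign-flip permutation test, p = 0.00781, adjusted p = 0.0125), though the difference was as small as 0.01 in cattle B. The direction turned with stitching within 5 kb (-0.051, p = 0.133, exact test), and the call was lost at a −log10 q of at least 5 (0.050, 7 of 8 libraries, p = 0.0703).

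The third comparison asked whether clustered regions recur in an H3K27ac library that took no part in choosing them. Clusters were built from the H3K27ac libraries of 2 sheep or goats, and that of the third animal was held out, while its H3K4me3 peaks still filtered the regions. In sheep, the held-out library had a peak in 80.5% of the clustered and 74.0% of the isolated regions for A, 68.6% and 66.9% for B, and 87.3% and 77.2% for C. In goats it was 73.6% and 68.3% for A, 91.5% and 84.4% for B, and 84.0% and 73.2% for C. Clustered regions recurred more often in 6 of 6 libraries, by 6.93 ± 3.32 percentage points (SD, n = 6). The two-sided exact sign-flip permutation test gave p = 0.0312 (adjusted p = 0.0417), the smallest it can give. Each library also helped to choose the regions when another animal of its species was held out. The 6 values are therefore not independent, which the test does not take into account. Clustered regions also had the higher pileup, and the part of pileup in recurrence was not tested. The call was lost with peaks at a −log10 q of at least 5 (3.97 points, p = 0.344, exact test), with the 20000 strongest peaks of each library (4.31 points, p = 0.0625) and with all regions outside clusters as comparison (4.71 points, p = 0.0625).

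**Figure D5:**
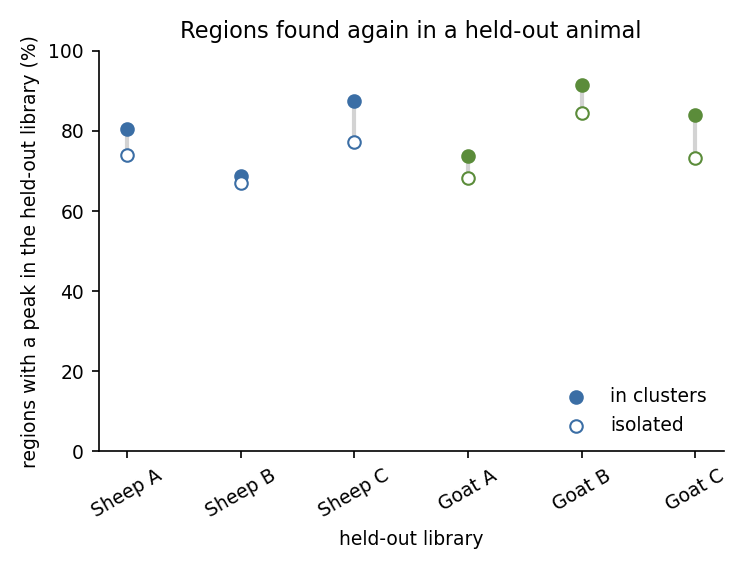
Share of enhancer regions chosen in 2 animals that had a peak in the held-out library (y axis, %), for regions in clusters (filled) and isolated regions (open) and each held-out sheep and goat library (x axis). The filled point is above the open one in each library, from 1.74 points in sheep B to 10.9 points in goat C.

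A cluster counts as whole in a library only if each of its 4 or more regions has a peak there, and the libraries are those that chose the regions. Of the 151 sheep clusters, A had a peak in every region of 84, B of 54 and C of 99. Of the 386 goat clusters, A had all regions of 127, B of 297 and C of 214. All 3 animals had every region of 13 clusters in sheep (8.61%) and of 37 in goats (9.59%). At least 4 regions of the cluster had a peak in 70.9%, 51.0% and 73.5% of the clusters in sheep A, B and C, and in 55.7%, 87.6% and 70.5% in goats A, B and C. Sheep B and goat A were the lowest of their species in each of these counts. Regions found in all 3 animals were 56.4% of the clustered and 45.5% of the isolated regions in sheep, and 60.7% and 48.2% in goats. Among neighbours in a cluster that were each missing from 1 animal, the same animal was missing in 40 of 98 pairs in sheep and 93 of 213 in goats (40.8% and 43.7%), close to the 36.0% and 41.4% of neighbouring isolated regions.

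The last description is of how clusters lie relative to H3K4me3. No enhancer region overlaps that mark by the rule, but the DNA between the regions can. At least 1 H3K4me3 peak lay within the span of 67 of 171 clusters in cattle (39.2%), 61 of 151 in sheep (40.4%) and 124 of 386 in goats (32.1%). An H3K27ac region shared by 2 or more libraries overlapped such a peak in 26.3%, 28.5% and 25.4% of the clusters. These clusters were longer, with a median span of 21137 bp against 16528 bp without H3K4me3 in cattle, 20390 against 16549.5 bp in sheep and 21533 against 15943 bp in goats, and a longer span has more room for any peak. Their regions had a higher background, for example 19.0 against 15.4 fragments in cattle B and 13.3 against 9.06 in sheep A, and a lower fold enrichment, at 2.46 against 2.69 and 2.83 against 3.28. Among clusters with no H3K4me3 in their span, fold enrichment was still below that of isolated regions (-0.21, log2, 8 of 8 libraries).

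The distance from a region to the nearest H3K4me3 peak was slightly smaller in clusters. In cattle the median distances of clustered and isolated regions were 15209 and 17723 bp in A, 22298 and 23889 bp in B, and 16483 and 19486 bp in C. In sheep they were 19749.5 and 19987 bp in A, 14014 and 16145.5 bp in B, and 15043.5 and 16262.5 bp in C. In goats they were 23497 and 24057.5 bp in A, 17298 and 17951 bp in B, and 17508 and 18052.5 bp in C. The difference was -0.11 ± 0.09 on the log2 scale (SD, n = 9), with clustered regions nearer in 9 of 9 libraries. The rule used the positions of these H3K4me3 peaks to drop regions, so the distance is a description and no p-value is given. Its direction was not stable. It turned when an H3K4me3 peak within 2 kb also removed a region (0.17) and at a −log10 q of at least 5 (0.34), and the difference was nearer to 0 without sheep A (-0.016), sheep C (-0.036), goat B (-0.070) or goat C (-0.075).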

How the data were processed

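H3K27ac and H3K4me3 ChIP-seq peak lists of 17 libraries from 9 animals were used. The methods name Trim Galore 0.4.0 for trimming, BWA-MEM 0.7.17 for alignment to ARS-UCD1.2, Oar_rambouillet_v1.0 and ARS1, Picard 2.25.0 for duplicates, subsampling of reads, and MACS2 2.1.1 for narrow peaks. Whether input libraries served as background is not given in the sources used here. The deposited lists give, per summit, a fold enrichment (a ratio to the local background) together with p-values and q-values as −log10. The score that the authors' peak caller wrote for each peak was not used. Summits that shared an interval were joined, with the highest value kept. Libraries were grouped by the labels' species and antibody.

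The members and the lists of tests were chosen with earlier results of these data known. MACS2 computes fold enrichment from pileup and background after adding 1 to each, and its p-value is a Poisson tail, so both were solved for. Whole-number pileups met the deposited −log10 p within 0.001 for 443301 of the 443303 H3K27ac summits. No read totals were used, so the number of animals limits precision.

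Within-library differences of medians (mean over clusters for inner against outer regions) were tested over libraries by exact two-sided sign-flip permutation, and species by exact permutation of F. Values were taken as the highest of a library's peaks in a region. Except for recurrence and the counts per library, the libraries of a species share 1 set of regions. P-values were adjusted by Benjamini-Hochberg over 8 tests, with a threshold of 0.05. These include distance to H3K4me3, whose p-value is not given because the rule used the same peaks. The clusters named per species are the 3 with most regions (ties by summed length), the longest, and the one whose lowest median fold enrichment over libraries is highest. Alternatives were stitching within 5 or 25 kb, 3 or 6 regions, stricter peaks, a 2 kb distance from H3K4me3, other summaries and leaving out each animal of sheep and goats (for the species tests also cattle B and C). Pileup, background, distance to the nearest peak, regions within 1 kb counted as 1, clusters without H3K4me3 in their span, and leaving out cattle animals for the other results were added after the data were seen. The code found the clusters that were placed in simulated lists, and the same goat clusters as bedtools. Genes and sequences of the clusters were not analysed here. Coordinates are 1-based. Python 3.11.15 was used, with scipy 1.17.1, numpy 2.4.6, matplotlib 3.10.9 and pandas 2.3.3.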

Additional observations from a re-analysis of the deposited data

Results flagged for a closer look

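The mean difference in fold enrichment between clustered and isolated regions was larger in cattle than in sheep and goats. It was -0.35 on the log2 scale on average in cattle (n = 2), -0.26 in sheep (n = 3) and -0.25 in goats (n = 3), and the exact permutation test of the F statistic over species labels gave p = 0.0179 (560 arrangements). With Benjamini-Hochberg adjustment over the 6 differences tested in this way the value was 0.107, which does not pass the threshold. The libraries of a species were scored on 1 shared set of regions, so they are not independent and the test may understate the spread within a species. In cattle a region had to be present in both libraries, and in sheep and goats in 2 of 3, and the part of this in the difference was not tested. The ratio of background between clustered and isolated regions was also largest in cattle, at 1.36 on the log2 scale on average against 0.99 in sheep and 1.12 in goats.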

How the results depend on the processing

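Of 121 recomputed values of the 7 results with a printed test, 98 kept their direction and their side of the threshold. The comparisons by distance to the nearest other peak are a description and are left out of this count. The values below are log2 differences between clustered and isolated regions unless another quantity is named, p-values are from the exact permutation tests, and the cause of each change was not tested. With stitching within 5 kb there were 83 clusters, width was -0.051 (exact p = 0.133), distance to H3K4me3 0.089, inner against outer fold enrichment 0.0070 (exact p = 0.609) and fold enrichment of groups of 7 or more against 4 0.19 (3 libraries, exact p = 0.250). At a −log10 q of at least 5 there were 230 clusters, width was 0.050 (exact p = 0.0703), distance 0.34 and recurrence 3.97 points (exact p = 0.344). With the 20000 strongest peaks there were 28 clusters, distance was 0.14, recurrence 4.31 points (exact p = 0.0625), inner against outer -0.024 (exact p = 0.367) and large against small groups -0.051 (exact p = 0.625). Removing regions within 2 kb of H3K4me3 left 458 clusters and a distance of 0.17. With 6 or more regions there were 108 clusters and the distance was 0.041. The count was 2238 with 3 or more regions, 1766 with stitching within 25 kb and 218 with regions within 1 kb counted as 1. In terms of −log10 q, clustered regions were higher by 0.20 (exact p = 0.00781), inner ones by 0.056 (exact p = 0.0469) and larger groups by 0.23 (exact p = 0.00781). Against all regions outside clusters, recurrence was 4.71 points (exact p = 0.0625). With means in place of medians, distance was -0.017. In clusters without H3K4me3 in their span, distance was 0.51, which the choice itself favours, and inner against outer was -0.018 (exact p = 0.0703). For peaks with another peak at 10 to 25 kb, fold enrichment was -0.074 (7 libraries).

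Leaving out 1 animal at a time gave 462 (without goat B) to 743 clusters (without cattle A). The share of distal peaks in clusters was 3.64 to 6.88 points higher in goats than in sheep. The test of that share over all 3 species passed the threshold without cattle B alone (p = 0.0286, exact test), which leaves 1 cattle library. Distance was -0.11 to -0.016, recurrence 6.11 to 7.76 points, and large against small groups -0.12 to -0.058. Recurrence without a sheep or goat rests on 3 libraries, where the smallest p of the exact test is 0.250. Leaving out cattle B or C leaves 1 cattle library, in which the rule finds no cluster, so those values rest on sheep and goats (537 clusters). Fold enrichment was then -0.25 and ranged from -0.28 to -0.27 when any 1 of the other animals was left out. No paired analysis was possible because the letters do not mark the same animal in different species, and each of the other tests already compares regions within a library. The lists carry no read totals, and 2 or 3 animals per species limit the precision.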

Other observations

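Off the autosomes, where the rule does not look, the same steps gave 1 cluster among 172 enhancer regions in cattle, 1 among 262 in sheep and 2 among 418 in goats. On the autosomes there were 171 clusters among 12130 enhancer regions in cattle, 151 among 12008 in sheep and 386 among 16761 in goats. The counts off the autosomes are small, and the difference was not tested.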
